A study of Mus musculus with 4 samples.

Results

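Venous endothelial cells carrying the transcripts Ackr1 and Selp were examined among CD31+ cells sorted from the ear skin of neonatal mice. A barcode counted as venous when it held at least 3 unique molecular identifiers (UMIs) of Ackr1 and Selp together and at least 1 UMI of Cdh5, with fewer than 3 UMIs of the lymphatic genes Prox1, Mmrn1 and Reln and fewer than 3 of the cell cycle genes Mki67 and Top2a. This rule found 316 venous cells among 4622 deposited barcodes, of which 3750 had at least 500 detected genes and at most 10% mitochondrial UMIs. Library 1 held 146 venous cells and library 2 held 170. They were set against all other blood endothelium, which were 872 and 1179 cells with Cdh5 and with none of the lymphatic genes, Ackr1 or Selp. All cells came from C57BL/6 mice at postnatal day 8, had been enriched for CD31 on magnetic beads, and were live cells sorted by CD31 and by the red reporter Cdh5CreERT2-Rtom, which recombination turns on in Cdh5-expressing cells. The labels call the 2 libraries biological replicates, and no genotype or treatment separates them, so each comparison is made between groups of cells of the same libraries. Leukocytes were not sorted away by CD45. Adult and wounded ears are also named in the labels and were not analysed here.

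Blood leaves capillaries through postcapillary venules and veins, and most leukocytes leave the blood there. Ackr1 is the atypical chemokine receptor, also known as the Duffy antigen, that binds and carries chemokines across venular endothelium. Selp encodes P-selectin, which is stored with von Willebrand factor (Vwf) in Weibel-Palade bodies and brought to the surface within minutes of activation. Sele encodes E-selectin, which must be transcribed anew, largely through the transcription factor NF-kB. Leukocytes roll on both selectins and then bind firmly to ICAM1 and VCAM1 through their integrins. Ptgs1 encodes the cyclooxygenase that makes the precursor of prostacyclin, and Nrp2 encodes a receptor for VEGF-C and semaphorins in veins and lymphatic vessels.

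Surface protein was read on the same cells with antibodies that each carry a DNA oligonucleotide. The 7 tag sequences are shown because every protein value given here is a count of one of them. None of these antibodies binds ACKR1 or P-selectin, so the protein counts took no part in choosing the cells. Tag sequences run 5′ to 3′.
ICAM1: ataaccgacacagtg
CXCR4: gtcgtggtgttgttc
VCAM1: cgttcctacctacct
VEGFR2: ataagagcccaccat
CD45: tggctatggagcaga
Rat IgG2a isotype Ctrl: aagtcaggttcgttt
Rat IgG2b isotype Ctrl: gattcttgacgacct

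The libraries held 1745 and 2877 barcodes with 15989249 and 26675353 UMIs, and 3 barcodes occurred in both. Venous cells had a median of 9159 UMIs in library 1 and 9806.5 in library 2, against 7973 and 8429 in other blood endothelium. A deeper cell passes a fixed number of UMIs more easily, so the part of depth in the size of the venous group cannot be told apart from a difference between cells. Venous cells made up 13.2% of 1105 blood endothelial cells in library 1 (95% interval by the exact Clopper-Pearson method, 11.3% to 15.4%) and 11.5% of 1474 in library 2 (9.95% to 13.3%), a mean of 12.4% ± 1.19 (SD, n = 2). With every cell thinned to 3000 UMIs before the rule was applied, the mean share was 6.91%. The limit of 3 UMIs stayed the same, so a lower share follows from thinning itself and does not measure the part of depth. These intervals, like all others here, cover counting error only.

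The rule chose the cells by Ackr1 and Selp, so their levels are a description. Ackr1 (chromosome 1, 173331886 to 173333750, minus strand, GRCm38) stood at 396 CPM in library 1 and 156 CPM in library 2 of the venous cells, where CPM is counts per 1e+06 UMIs of the group of cells. Selp (chromosome 1, 164115264 to 164150026, plus strand) stood at 929.9 and 1457 CPM in venous cells. The libraries thus ran in opposite directions for the pair, with Ackr1 higher in library 1 and Selp higher in library 2. In library 1, 54.1% of venous cells held both transcripts, 36.3% held Selp alone and 9.59% held Ackr1 alone. In library 2 these shares were 32.4%, 67.1% and 0.588%. Most venous cells of library 2 were therefore chosen by Selp without a single Ackr1 UMI. The summed UMIs of both genes had a median of 8 in library 1 and 9.5 in library 2, with highest values of 105 and 146. Just inside the threshold, 19 and 18 cells held exactly 3 UMIs. Just outside it, 27 and 22 cells held exactly 2. Cdh5 stood at 777.8 and 790.7 CPM in venous cells, against 996 and 1053 CPM in other blood endothelium.

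**Figure D1:**
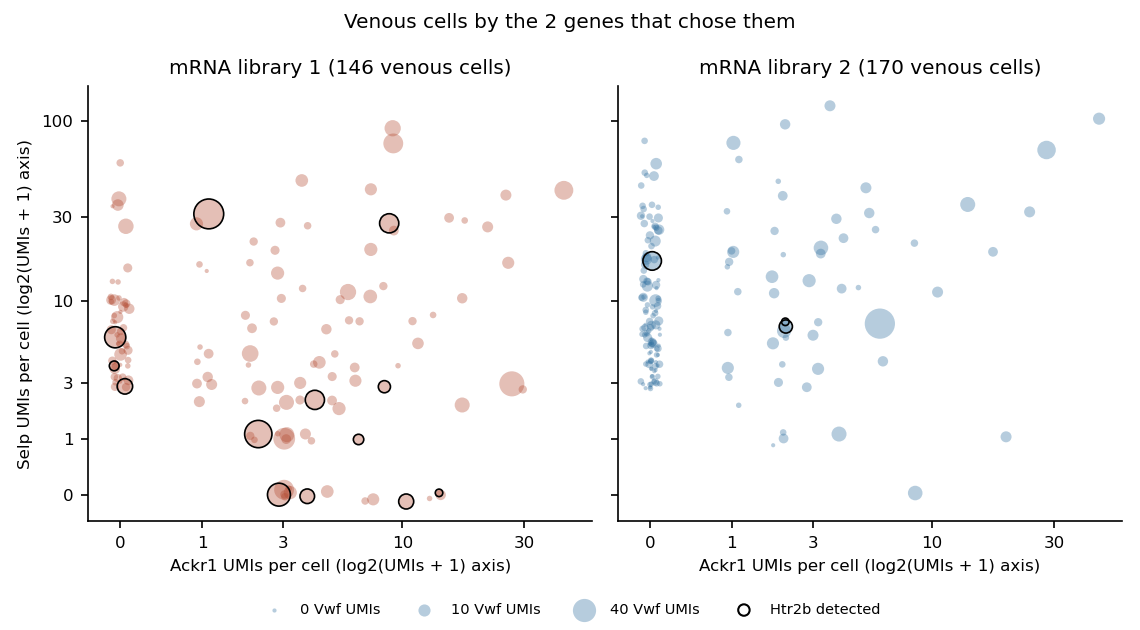
UMIs of Ackr1 (x axis) and Selp (y axis) in each venous cell, one panel per library, with point area showing Vwf UMIs and a black outline marking cells with an Htr2b UMI. In library 1 the cells spread along both axes, whereas in library 2 67.1% of them lie on the line where Ackr1 is 0.

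Venous marker genes that the rule did not use were higher in the chosen cells of both libraries. The 6 pan-endothelial markers summed to 4334 and 4052 CPM in venous cells, against 5599 and 5468 CPM in other blood endothelium. From here on, CPM in comparisons between groups is scaled by the TMM method, and p-values come from edgeR's quasi-likelihood test with Benjamini-Hochberg adjustment over all genes tested, with the library as a block. Because the cells were picked by 2 venous transcripts in the libraries that were then tested, a p-value describes the cells that the rule picks and is not separate evidence that they are venous. Vwf (chromosome 6, 125546774 to 125686679, plus strand) had 760.5 and 405 CPM in venous cells, against 82.9 and 69.7 CPM in other blood endothelium, a 7.01-fold higher level (log2 2.81, SE 0.34, adjusted p = 6.61e-05). Ptgs1 (chromosome 2, 36230426 to 36252272, plus strand) had 187 and 101 CPM in venous cells and 19.0 and 19.6 CPM in the others (log2 2.81, SE 0.26, adjusted p = 8.52e-06). Nrp2 had 303 and 240.3 CPM in venous cells and 96.3 and 99.2 CPM in the others (log2 1.47, SE 0.14, adjusted p = 9.54e-06). For all 3 genes both venous values lay above both values of the other cells. Lymphatic cells, with at least 3 UMIs of the lymphatic genes of the rule, held Nrp2 at least as often. After thinning to 3000 UMIs, 64.9% and 77.6% of them had an Nrp2 UMI, against 56.2% and 44.1% of venous cells.

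Marker genes of other cell types were read in both groups, in unscaled CPM. The 10 leukocyte markers summed to 38.8 and 16.8 CPM in venous cells, against 40.7 and 22.3 CPM in other blood endothelium, and C1qa, Cd3e and Cpa3 were at 0 in venous cells of both libraries. The 9 pericyte and smooth muscle markers summed to 482 and 457 CPM in venous cells and to 587 and 440 CPM in the others. The 7 platelet markers, which bear on Selp and Vwf because platelets hold both proteins, summed to 11.9 and 30.5 CPM in venous cells and 10.6 and 8.75 CPM in the others, with Gp1bb and Gp6 at 0 throughout. The 9 lymphatic markers summed to 75.1 and 52.1 CPM in venous cells and 42.5 and 54.4 CPM in the others, and the rule allowed venous cells up to 2 UMIs of the 3 lymphatic genes it used, which 12 and 14 of them held. The 6 erythroid markers summed to 519 and 316 CPM in venous cells and to 1402 and 2218 CPM in the others. A fit without cells carrying markers such as those of leukocytes, pericytes and platelets called 1688 genes against 1728. Cells were not left out of that fit for lymphatic or erythroid markers, so the part of those levels in the results was not tested. The part of each other list taken alone was not tested either.

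In the comparison of venous cells with other blood endothelium, 1728 of 11062 genes passed an adjusted p of 0.05 (15.6%), of which 886 were higher (8.01%) and 842 were lower (7.61%) in venous cells. Venous cells had been chosen for low Mki67 and Top2a and the other cells had not, so lower cell cycle genes follow from the rule. Hist1h1b, a linker histone of dividing cells, was 6.04 lower on the log2 scale, yet only 1.13 lower (adjusted p = 0.32) once dividing cells were also taken out of the other group. Ube2c, Ccna2, Cenpf and Hist1h2ap likewise passed against all other cells and did not pass against the non-dividing ones (adjusted p = 0.224, 0.762, 0.494 and 0.808). Against non-dividing cells 1365 of 11038 genes passed (12.4%).

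Genes of venous identity were higher as a block. All 18 tested members of the list passed upward, with a median log2 change of 1.61, against 0.01 over all genes. The list was drawn up with earlier results of these data known, so its direction is not independent evidence. Tll1, a tolloid-like metalloprotease, had 60.7 and 43.1 CPM in venous cells against 0.92 and 1.03 CPM in other blood endothelium (log2 5.64, SE 0.29, adjusted p = 5.64e-08). Lrg1, a secreted leucine-rich glycoprotein that modulates TGF-beta signalling (chromosome 17, 56119678 to 56122001, minus strand), had 198 and 180.3 CPM in venous cells against 15.1 and 17.3 CPM (log2 3.52, SE 0.26, adjusted p = 1.2e-06). Nr2f2, which encodes COUP-TFII, the nuclear receptor that represses Notch and maintains vein identity, had 272 and 207 CPM in venous cells against 69.8 and 63.3 CPM (log2 1.84, SE 0.14, adjusted p = 1.05e-06). It was not particular to venous cells. After thinning to 3000 UMIs, an Nr2f2 UMI was found in 56.2% and 45.9% of venous cells and in 61.9% and 56.2% of lymphatic cells. Il6st, the signalling receptor chain gp130 shared by IL-6 family cytokines, was 4.02-fold higher (log2 2.01). Among the transcription factors other than Nr2f2, 11 of 31 tested rose and 6 fell, including rises of Foxc1 (log2 1.82) and Foxp1 (log2 1.19), both forkhead factors, and a fall of the Notch target Hey1 (log2 -3.96).

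The genes with the largest rises included several that are no textbook venous markers. Among genes of at least moderate level (average log2 CPM of 5 or more), those with the largest rise included 13 named here, Abi3bp, Sele, Fam174b, Lbp, Ctnnal1, Pgm5, Lrg1, Prelp, Fndc1, Fbn1, Igf1, Mmp2 and Vwf, with log2 changes between 2.81 and 4.33. Abi3bp, which encodes an extracellular matrix protein, had 30.7 and 19.8 CPM in venous cells against 1.27 and 1.20 CPM in other blood endothelium (adjusted p = 1.14e-06). Lbp, the lipopolysaccharide-binding protein, had 319.8 and 158 CPM in venous cells against 20.9 and 9.95 CPM (adjusted p = 5.8e-08). Lymphatic cells held 113 and 141 CPM of Abi3bp and 829 and 639 CPM of Lbp, more than venous cells, but 38.7 and 5.95 CPM of Vwf, fewer than venous cells. Of the 13 genes, 7 stood higher in lymphatic than in venous cells and 5 lower. The average level behind the choice of these 13 genes also counts lymphatic cells, which favours genes high in them. Over venous cells and other blood endothelium alone the log2 of the mean CPM was under 5 for Pgm5 (4.90), Prelp (4.73), Fndc1 (4.11) and Abi3bp (3.73). The lymphatic chemokine gene Ccl21a, read after thinning, had a UMI in 2.74% and 2.94% of venous cells, 1.78% and 3.58% of other blood endothelium and 78.4% and 96.1% of lymphatic cells.

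**Figure D2:**
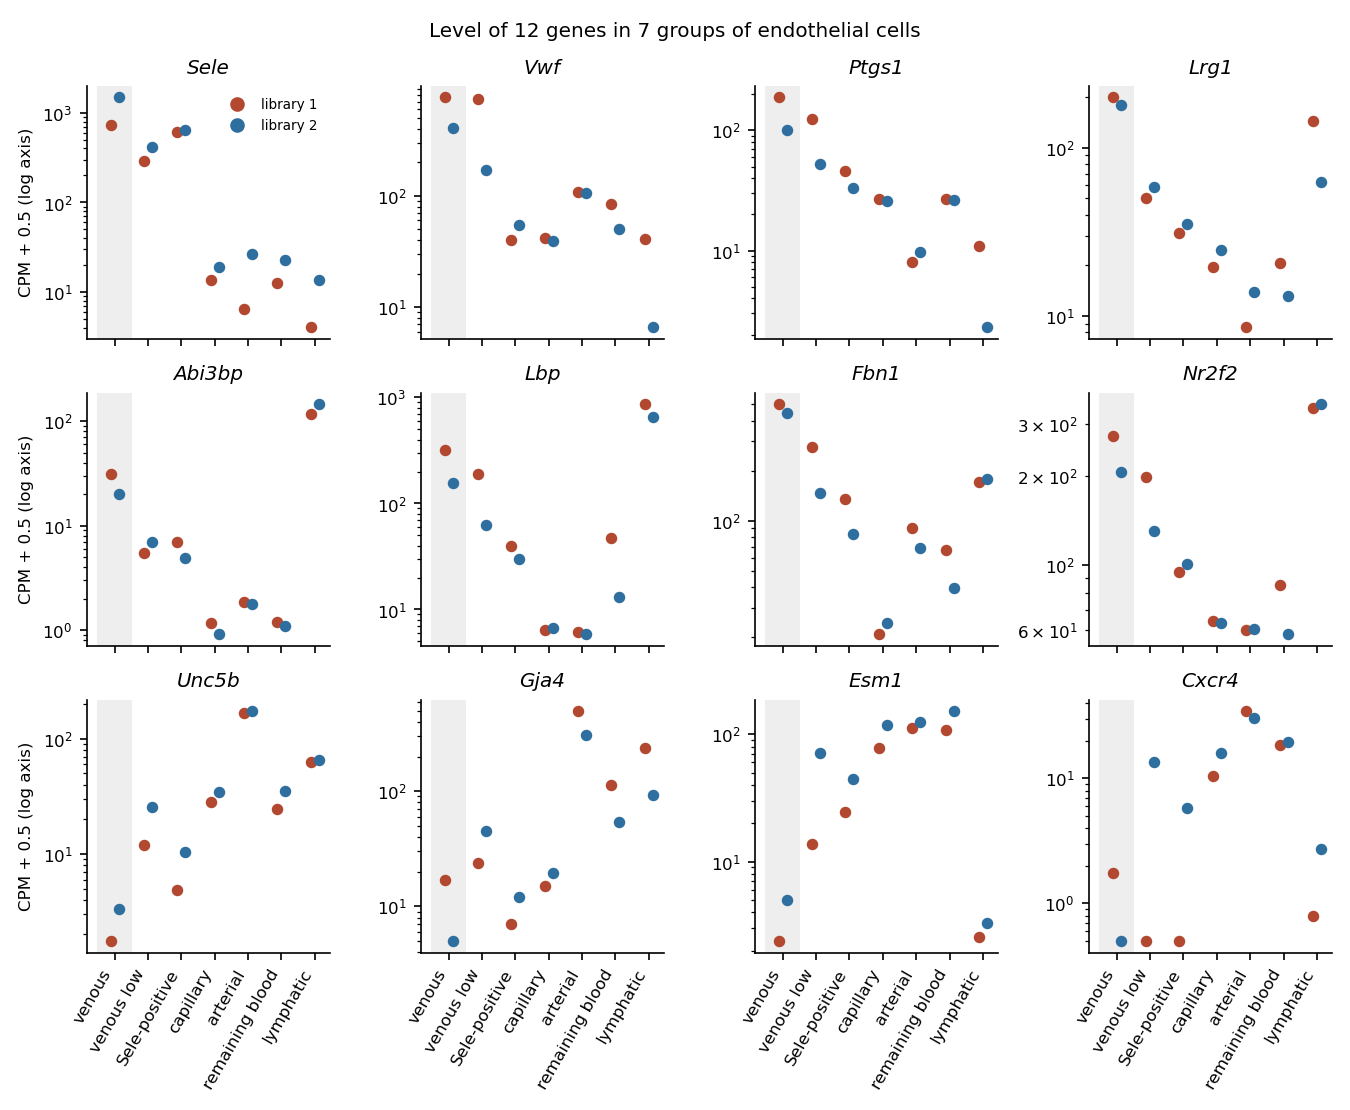
Levels of 12 genes in CPM scaled by the TMM method (plus 0.5, log axis), with one point per library. The groups are venous cells, cells with 1 or 2 UMIs of Ackr1 and Selp, Sele-positive, capillary, arterial and remaining blood endothelium and lymphatic cells. In unscaled CPM, which is not drawn, Sele stands at 726 and 1387.7 in venous cells and at 3.65 and 12.8 in lymphatic cells.

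Leukocyte adhesion genes split, with the cytokine-inducible receptors Sele, Vcam1 and Icam1 among the rises and several constitutive membrane glycoproteins among the falls. Of 17 tested members, 5 rose (Sele, Vcam1, Icam1, Plvap and Jam2), 7 fell (Cd200, Jam3, Podxl, Cd34, Mcam, Icam2 and F11r) and 5 did not pass, with a list median of -0.19 (log2). Sele (chromosome 1, 164048234 to 164057677, plus strand) had 726 and 1494 CPM in venous cells against 41.0 and 82.5 CPM in other blood endothelium, which is 17.9-fold (log2 4.16, SE 0.16, adjusted p = 4.26e-09). Icam1 (chromosome 9, 21015985 to 21028817, plus strand) had 1086 and 2627 CPM in venous cells against 237 and 885 CPM (log2 1.88, SE 0.17, adjusted p = 4.97e-06). Within each library the venous value was higher, but the 1086 CPM of venous cells in library 1 lay close to the 885 CPM of other cells in library 2, and without the library block the adjusted p of Icam1 was 0.264. Vcam1 (chromosome 3, 116109949 to 116129688, minus strand) had 106 and 57.8 CPM in venous cells against 12.3 and 12.3 CPM (log2 2.69, SE 0.24, adjusted p = 5.66e-06). Cd200, an immune-inhibitory membrane ligand, had 92.0 and 59.5 CPM in venous cells against 196 and 167 CPM (log2 -1.27, adjusted p = 5.32e-05).

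Chemokine and cytokine genes moved both ways, with more higher than lower. Of 17 tested, 6 rose (Csf3, Cxcl16, Cxcl10, Il6, Cxcl9 and Cxcl1), 2 fell (Ccl5 and Cxcl12) and 9 did not pass, with a median of 0.53 (log2). Csf3, the granulocyte colony-stimulating factor, had 11.3 CPM in library 1 and 163 CPM in library 2 of the venous cells, against 0.115 and 5.83 CPM in other blood endothelium (log2 4.88, SE 0.25, adjusted p = 5.64e-08). Cxcl16, a transmembrane chemokine, had 129.6 and 65.2 CPM in venous cells against 11.3 and 6.17 CPM (log2 3.46, SE 0.20, adjusted p = 1.01e-07). Cxcl10, an interferon- and NF-kB-driven chemokine, had 294 and 604 CPM in venous cells against 62.9 and 137 CPM (log2 2.18, SE 0.10, adjusted p = 2.68e-08). Csf3 and Cxcl10 were higher in library 2 in both groups, and Cxcl16 was higher in library 1. Cxcl12, the arterial and perivascular ligand of CXCR4, had 38.2 and 40.8 CPM in venous cells against 531 and 363 CPM (log2 -3.47, SE 0.19, adjusted p = 6.61e-08). Of 19 cytokine receptors, 8 also rose and 3 fell, among the rises Il1r1 (log2 0.88), the interleukin-1 receptor, and Csf2rb (log2 1.11), the common beta chain for GM-CSF and IL-3.

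NF-kB response genes and immediate-early genes were higher in venous cells of both libraries, and both lists were higher in library 2 than in library 1. Of 18 NF-kB genes, 9 rose, 1 fell and 8 did not pass (median log2 0.55). Nfkbia, the inhibitor IkB-alpha that NF-kB itself induces, had 1865 and 3219.6 CPM in venous cells against 728 and 1381 CPM (log2 1.29, SE 0.08, adjusted p = 1.6e-07). Irf1 was 3.71-fold higher, and the feedback genes Zc3h12a, an RNase, and Nfkbiz, a nuclear IkB protein, were 3.67-fold and 3.25-fold higher. Of 24 immediate-early and stress genes, 17 rose and 1, Hspa1a, fell (median log2 0.76). Atf3 had 641 and 1412 CPM in venous cells against 135 and 460.0 CPM (log2 1.92, adjusted p = 3.09e-07). Inside venous cells, 17 of 18 NF-kB genes and 23 of 24 immediate-early genes were higher in library 2 (median log2 difference 0.68 and 0.62). In other blood endothelium 16 of 18 and 24 of 24 were higher there. Of the 18 venous identity genes, 4 were higher in library 2 inside venous cells. What separates the libraries was not tested.

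Stretches upstream of Cxcl10, Nfkbia and Sele are shown because these genes rose and belong to the chemokine, NF-kB and adhesion lists. They are the 250 bases before the start of each gene on its own strand, from RefSeq on GRCm38.p6, and capitals mark matches, on either strand and overlaps included, to GGG, any 2 bases and TTTCC, or to GGGA, any 2 bases and TTCC, which are simplified forms of the kappaB site. The Cxcl10 stretch is chr5:92348890-92349139 on the minus strand, the Nfkbia stretch is chr12:55492648-55492897 on the minus strand and the Sele stretch is chr1:164047984-164048233 on the plus strand.
Cxcl10: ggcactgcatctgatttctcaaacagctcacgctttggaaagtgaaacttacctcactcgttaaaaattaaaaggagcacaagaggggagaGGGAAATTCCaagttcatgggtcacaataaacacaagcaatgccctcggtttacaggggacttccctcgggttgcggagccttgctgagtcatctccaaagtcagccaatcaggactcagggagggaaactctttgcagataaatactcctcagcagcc
Nfkbia: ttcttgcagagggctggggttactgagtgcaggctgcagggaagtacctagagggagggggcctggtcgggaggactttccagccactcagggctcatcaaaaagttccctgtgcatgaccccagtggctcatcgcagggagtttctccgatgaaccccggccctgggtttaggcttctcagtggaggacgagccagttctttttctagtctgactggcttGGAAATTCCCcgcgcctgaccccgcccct
Sele: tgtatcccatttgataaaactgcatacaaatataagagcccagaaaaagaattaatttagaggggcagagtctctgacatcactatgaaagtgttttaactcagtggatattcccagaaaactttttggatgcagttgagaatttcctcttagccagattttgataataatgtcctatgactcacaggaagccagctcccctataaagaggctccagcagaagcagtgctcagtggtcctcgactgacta
Either form occurred in 743 of 32851 upstream stretches of this length (2.26%). Of the 9 NF-kB genes that rose, 7 had an upstream sequence and 3 of these (Nfkbia, Rel and Tnfaip3) held a match, as did Cxcl1, Cxcl10 and Il6 among 4 chemokine genes with a sequence. No match was found in 13 venous identity genes, in 14 immediate-early genes or in Sele and Icam1, the 2 adhesion genes that rose and had a sequence. A match is a run of letters, not a measured binding site, and a missing match says only that these letters are not in this window. Near matches that miss a fixed letter were not counted, and the stretches of Sele and Icam1 hold such runs. The search therefore cannot tell whether Sele, Icam1 or the other genes without a match lack a kappaB site.

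Genes of arteries and of sprouting tips were lower. Of 20 tested arterial and Notch genes, 17 fell and none rose (median log2 -1.90). Unc5b, a netrin receptor of arterial and tip endothelium (chromosome 10, 60762593 to 60831581, minus strand), had 1.25 and 2.83 CPM in venous cells against 84.9 and 87.2 CPM in other blood endothelium (log2 -5.35, SE 0.30, adjusted p = 8.69e-08). Gja4, the arterial connexin 37 (chromosome 4, 127311421 to 127314039, minus strand), had 16.3 and 4.53 CPM in venous cells against 251 and 145 CPM (log2 -4.30, SE 0.34, adjusted p = 1.98e-06). Of 17 tip cell genes, 15 fell and 1, Marcksl1, rose (median log2 -1.78). Esm1, the VEGF-induced tip cell proteoglycan endocan (chromosome 13, 113209659 to 113218098, plus strand), had 1.88 and 4.53 CPM in venous cells against 97.6 and 122 CPM (log2 -5.09, SE 0.38, adjusted p = 1.16e-06). Cxcr4, the CXCL12 receptor (chromosome 1, 128588199 to 128592293, minus strand), had 1.25 CPM in library 1 and no UMI in library 2 of the venous cells, against 22.2 and 21.2 CPM (log2 -5.13, SE 0.80, adjusted p = 0.000547). For these 4 genes both venous values lay below both values of the other cells. They are among the largest falls of their lists and do not speak for every member.

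Capillary genes did not move as 1 block. Of 19 tested, 11 fell and 4 rose (median log2 -0.63). Rbp7, a retinol-binding protein of capillary endothelium, had 173 and 249 CPM in venous cells against 772 and 714 CPM (log2 -1.83, SE 0.14, adjusted p = 1.38e-06), and Rgcc, a cell cycle regulator, had 213 and 344 CPM against 616 and 793 CPM (log2 -1.37). Meox2, a homeobox factor involved in fatty acid transport, rose with 436 and 439 CPM in venous cells against 223 and 228 CPM (log2 0.96, adjusted p = 3.66e-05), as did the fatty acid binding proteins Fabp4 and Fabp5 and the transporter Slc27a3.

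The matrix genes of venous cells shifted away from basement membrane proteins. Of 27 tested, 12 fell and 5 rose (median log2 -0.41). The falls held Fn1, Lamb1, Nid2, Lama4, Lamc1, Col4a1, Col4a2, Hspg2 and Col18a1, which encode fibronectin, laminins, nidogen, type IV collagen and heparan sulfate carriers. Fn1 had 20.7 and 16.4 CPM in venous cells against 190.0 and 133 CPM (log2 -3.11, SE 0.18, adjusted p = 1.38e-07). The rises were Fbn1, Mmp2, Fbln2, Timp2 and Bgn. Fbn1, the microfibril protein fibrillin-1, had 499 and 446 CPM in venous cells against 71.1 and 51.6 CPM (log2 2.96, SE 0.17, adjusted p = 9.68e-08). Among 21 BMP and TGF-beta genes, 6 rose and 4 fell (median log2 -0.08), including a rise of Bmp2 with 77.6 and 37.4 CPM in venous cells against 5.41 and 8.57 CPM (log2 2.93, SE 0.33, adjusted p = 3.31e-05) and a fall of Tgfb2 (log2 -1.64).

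Haemostatic and vasoactive genes rose in part. Of 20 haemostasis genes, 7 rose and 2 fell (median log2 0.36), among them Procr, the endothelial protein C receptor, with 277 and 207 CPM in venous cells against 52.7 and 48.5 CPM (log2 2.22, SE 0.20, adjusted p = 5.26e-06), and a fall of F2r, the thrombin receptor PAR1 (log2 -1.03). Of 13 prostanoid, amine and vasomotor genes, 4 rose and 3 fell (median log2 0.35). The endothelin B receptor gene Ednrb was lower, with 32.5 and 19.3 CPM in venous cells against 75.3 and 74.9 CPM (log2 -1.59, adjusted p = 0.000589). Ehd4, a dynamin-like membrane trafficking protein, was higher, with 1244 and 948 CPM in venous cells against 191 and 188 CPM (log2 2.51, SE 0.13, adjusted p = 5.64e-08), whereas Cldn5, the tight junction claudin, was lower with 422 and 549 CPM against 1182 and 1154 CPM (log2 -1.27, adjusted p = 2.66e-06). Kdr, which encodes the VEGF receptor VEGFR2, was slightly lower, with 339 and 367 CPM in venous cells against 455 and 566 CPM (log2 -0.53, SE 0.10, adjusted p = 0.00221). Of the 16 junction, caveola and diaphragm genes that hold Ehd4 and Cldn5, 4 rose and 6 fell (median log2 -0.23), and of the 16 VEGF and angiopoietin genes that hold Kdr, 2 rose and 4 fell (median log2 -0.04). Interferon response genes also moved both ways, with 5 of 24 higher and 4 lower (median log2 -0.03). Of 19 MHC and antigen presentation genes, 2 rose and none fell. Over all genes tested, 8.01% were higher and 7.61% were lower in venous cells. The 2 rises among 19 lie close to that share and are not read as a result about this list.

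**Figure D3:**
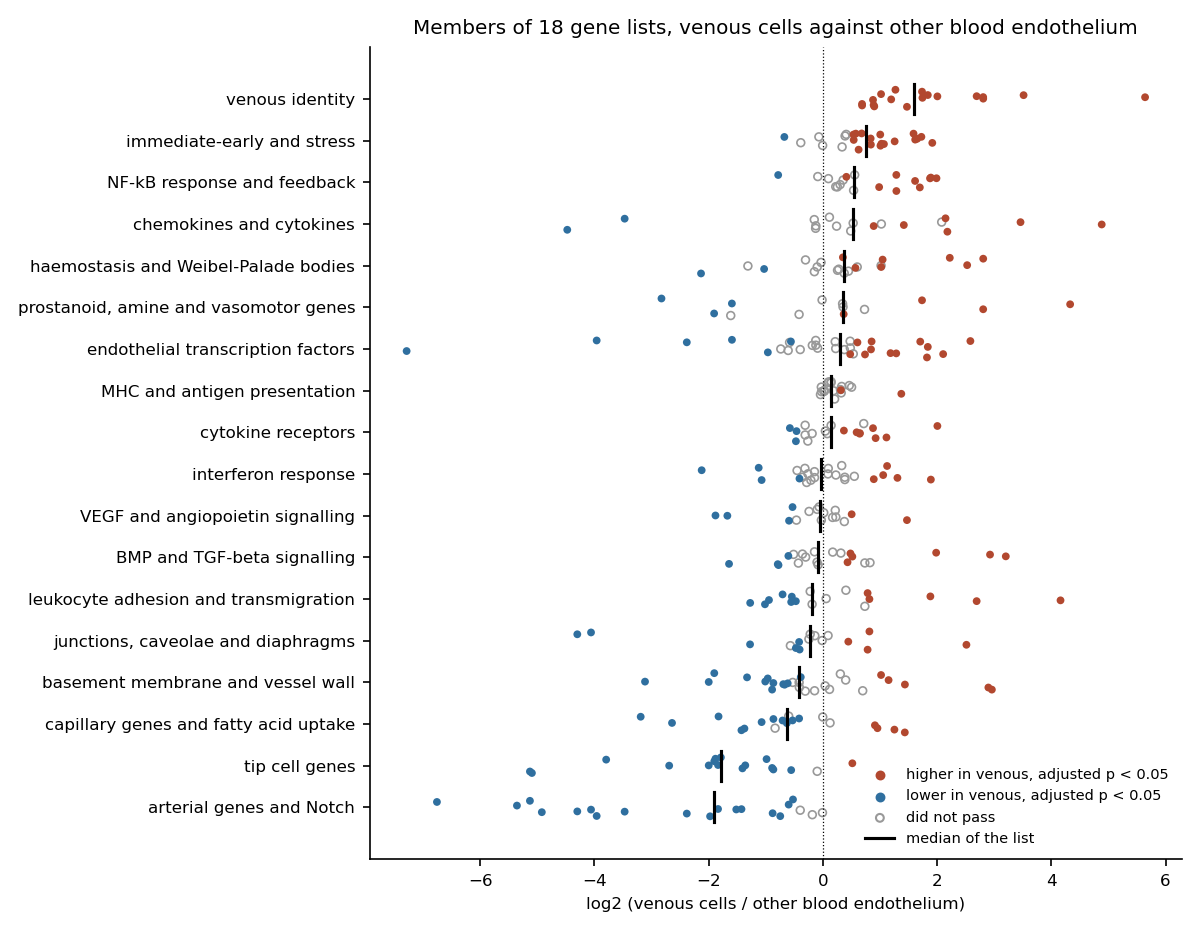
Log2 change in venous cells over other blood endothelium (x axis) for the tested members of 18 gene lists (rows), with one point per gene and filled points for genes past an adjusted p of 0.05. The 18 venous identity genes lie to the right of 0, and 17 of 20 arterial and Notch genes pass to the left of it.

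Venous cells were next set against 3 gates drawn inside the other blood endothelium, each needing at least 3 UMIs: arterial cells by Cxcl12, Unc5b and Gja5 (373 and 455 cells), then Sele-positive cells (32 and 93), then capillary cells by Car4, Timp4, Lrat and Col13a1 (139 and 223). Against the Sele-positive cells, which carry E-selectin without Ackr1 or Selp, 1133 of 11126 genes passed (10.2%, with 5.03% higher in venous cells and 5.15% lower), and 336 of 10766 (3.12%) with dividing cells taken out of the Sele-positive group. Vwf had 761 and 402 CPM in venous cells against 39.3 and 54.3 CPM in Sele-positive cells (log2 3.35, SE 0.48, adjusted p = 0.000167). Ehd4 was 4.3-fold and Ptgs1 3.52-fold higher in venous cells (adjusted p = 3.54e-07 and 0.00194). Prss23, a serine protease, had 159.8 and 83.8 CPM in venous cells against 8.73 and 6.24 CPM in Sele-positive cells (log2 3.98, adjusted p = 4.03e-06). Of the 18 venous identity genes 13 were higher in venous than in Sele-positive cells (median log2 1.17, against 0.03 over all genes). Icam1 had 1087 and 2606 CPM in venous cells against 789.9 and 1807 CPM in Sele-positive cells, a difference that did not pass (log2 0.52, SE 0.21, adjusted p = 0.151). Within each library the venous Icam1 value was the higher one, and the Vwf level of Sele-positive cells was below that of the other blood endothelium as a whole (82.9 and 69.7 CPM). Their small number in library 1 limits what this comparison can show.

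Against arterial cells 1918 of 11127 genes passed (17.2%, with 8.05% higher in venous cells and 9.18% lower). Against capillary cells 1923 of 11122 passed (17.3%, with 9.03% higher in venous cells and 8.26% lower). Against capillary cells, Vcam1 had 107 and 57.4 CPM in venous cells and 1.32 and 1.66 CPM in capillary cells (log2 5.64, SE 0.55, adjusted p = 1.36e-06), and Kdr had 339 and 364 CPM in venous cells and 603 and 669 CPM in capillary cells (log2 -0.86, SE 0.10, adjusted p = 1.43e-05). Against arterial cells, Ptgs1 had 187 and 101 CPM in venous cells and 7.53 and 9.21 CPM in arterial cells (log2 4.02, SE 0.31, adjusted p = 7.31e-08). The 3 comparisons share the venous cells. In 316 of 11122 genes (2.84%) venous cells were higher than each of the 3 gates with an adjusted p under 0.05 in each, and in 278 (2.50%) they were lower than each. The genes higher than in every gate included Pgm5, Ctnnal1, Fam174b, Igf1, Lbp, Lrg1, Vwf, Abi3bp, Fbn1, Ehd4 and Ptgs1. Lymphatic cells are not among the gates. They held more Pgm5, Ctnnal1, Fam174b, Lbp and Abi3bp than venous cells, and less Lrg1, Vwf and Fbn1.

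Cells with only 1 or 2 UMIs of Ackr1 and Selp, 67 in library 1 and 79 in library 2, had levels of Sele, Icam1, Ptgs1 and Nrp2 between those of venous cells and other blood endothelium in both libraries. Against other blood endothelium, 458 of 11062 genes passed in them (4.14%; 1.85% higher), and 271 of 11038 with dividing cells taken out of the other group (2.46%). In the first of these fits 12 of 18 venous identity genes rose (median log2 1.06). Sele had 294 and 422 CPM in these cells against 41.0 and 82.5 CPM in other blood endothelium (log2 2.58, SE 0.16, adjusted p = 2.92e-06). Vwf had 739 CPM in library 1 and 174 CPM in library 2 of these cells, against 82.9 and 69.7 CPM (log2 2.29, SE 0.36, adjusted p = 0.0026). In library 1 their Vwf level was thus close to the 760.5 CPM of venous cells, and in library 2 it was lower than the 405 CPM of venous cells. Vcam1 did not pass in them (38.2 and 22.6 CPM against 12.3 and 12.3 CPM, adjusted p = 0.112).

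Inside the venous group, cells rich in Vwf held more Ackr1 and more of several matrix genes such as Eln, and less of 4 capillary genes. Vwf UMIs per venous cell had a median of 5 in library 1 and 2 in library 2, with highest values of 67 and 69, and 138 of 146 and 140 of 170 cells held at least 1. Each library was divided at its middle rank of Vwf per total UMIs into 73 Vwf-high and 73 Vwf-low cells in library 1 and 85 and 85 in library 2. Vwf-high cells were shallower, with medians of 8639 and 8685 UMIs against 10651 and 11715 UMIs in Vwf-low cells. The part of that depth difference in the results was not tested. Vwf itself, Ackr1 and Selp chose the cells and were not tested. Ackr1 had 621 and 352 CPM in Vwf-high cells against 213 and 16.5 CPM in Vwf-low cells. The levels of Vwf and Selp in these groups are not given here, so the higher Ackr1 does not speak for Selp. Markers of other cell types moved with the division, in unscaled CPM. The 9 lymphatic markers summed to 120 and 67.3 CPM in Vwf-high cells against 37.8 and 39.5 CPM in Vwf-low cells, with Reln at 0 throughout, and the 9 pericyte and smooth muscle markers to 153 and 370.1 CPM against 755 and 530.0 CPM, with Cspg4 at 0 in all groups but the Vwf-low cells of library 2.

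Between these groups 176 of 9218 genes passed (1.91%), with 114 higher (1.24%) and 62 lower (0.673%) in Vwf-high cells. Without the library block 4 genes passed, so these calls rest on comparing cells within a library. Of 27 tested basement membrane and vessel wall genes, 7 rose and 6 fell (median log2 -0.14). Eln, elastin, had 2668 and 863 CPM in Vwf-high cells against 480.3 and 139 CPM in Vwf-low cells (log2 2.54, SE 0.40, adjusted p = 0.00665). Mgp, matrix Gla protein, an inhibitor of calcification, had 716 and 205 CPM in Vwf-high cells against 56.2 and 23.7 CPM (log2 3.50, SE 0.55, adjusted p = 0.00665). Fbln5 and Fbln2, fibulins that bind elastic fibres, were 3.18-fold and 2.72-fold higher (adjusted p = 0.00574 and 0.00245). The calls for Eln, Fbln5 and Fbln2 held without cells carrying an Htr2b UMI, which lie mostly among the Vwf-high cells, and also without cells holding 3 or more UMIs of lymphatic or other cell type markers. Without the Htr2b cells Mgp stood at 318 and 100.2 CPM in Vwf-high cells against 43.9 and 22.2 CPM in Vwf-low cells (unscaled) and no longer passed (log2 2.65, adjusted p = 0.0503). Either omission left 130 genes that passed, and both were chosen after seeing the data. Library 1 held more Eln and Mgp in both groups of venous cells, and within each library the Vwf-high value was the higher one.

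The falls among the 27 were Col4a2, Nid2, Sparc, Sparcl1 and Col4a1 (log2 -1.12) and Col15a1 (log2 -1.22), genes of basement membrane and other matrix proteins. Other genes higher in Vwf-high cells were Edn1, the vasoconstrictor endothelin-1, with 183 and 132 CPM against 45.9 and 11.3 CPM (log2 2.54, adjusted p = 0.0203), Vegfc, the lymphangiogenic growth factor, with 156 and 57.8 CPM against 57.3 and 34.0 CPM (log2 1.18, adjusted p = 0.0165), and the transcription factors Gata6 (log2 2.00, adjusted p = 0.0396) and Foxc1 (log2 1.88, adjusted p = 0.0055). Pdlim3, Ctsh and Stmn2 completed the largest rises (log2 3.62, 2.74 and 2.53). Edn1, Gata6 and Ctsh did not pass without the Htr2b cells (adjusted p = 0.0835, 0.155 and 0.0812) or without cells holding lymphatic or other markers (adjusted p = 0.0699, 0.30 and 0.0976), and Pdlim3 did not pass without the marker-holding cells (adjusted p = 0.0846). Cell cycle genes were lower in Vwf-high cells, although both groups had met the same limit on Mki67 and Top2a. Without the Htr2b cells Ccnb2, Cdca8, Birc5 and Pclaf passed (log2 -5.02, -3.97, -3.01 and -2.51, adjusted p = 0.0113, 0.0371, 0.0152 and 0.0400). Without the marker-holding cells Ccnb2 and Cdca8 passed (adjusted p = 0.0128 and 0.0186), and Birc5 and Pclaf did not (0.0846 and 0.158).

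Capillary genes were lower in Vwf-high cells, with 4 of 18 falling and none rising (median log2 -0.48, against 0 over all genes to 2 decimals). Rbp7 had 51.4 and 85.5 CPM in Vwf-high cells against 275 and 383 CPM in Vwf-low cells (log2 -2.26, SE 0.20, adjusted p = 0.000325). Rgcc, Gpihbp1 and Cd300lg were also lower (log2 -1.57, -1.31 and -1.24). Gpihbp1 encodes the protein that anchors lipoprotein lipase to capillary walls. In edgeR's test none of 18 NF-kB genes and none of 24 immediate-early genes passed, with 3 and 5 of them at an unadjusted p under 0.05 and 0 calls in either list by DESeq2. Icam1 had 1179.9 and 2790.0 CPM in Vwf-high cells against 1016 and 2491 CPM in Vwf-low cells (log2 0.19, SE 0.18, adjusted p = 0.685). No call was reached for Ptgs1 (log2 0.75, adjusted p = 0.263), for Nrp2 (log2 0.45, adjusted p = 0.223) or for Vcam1 (log2 1.03, adjusted p = 0.124) either.

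**Figure D4:**
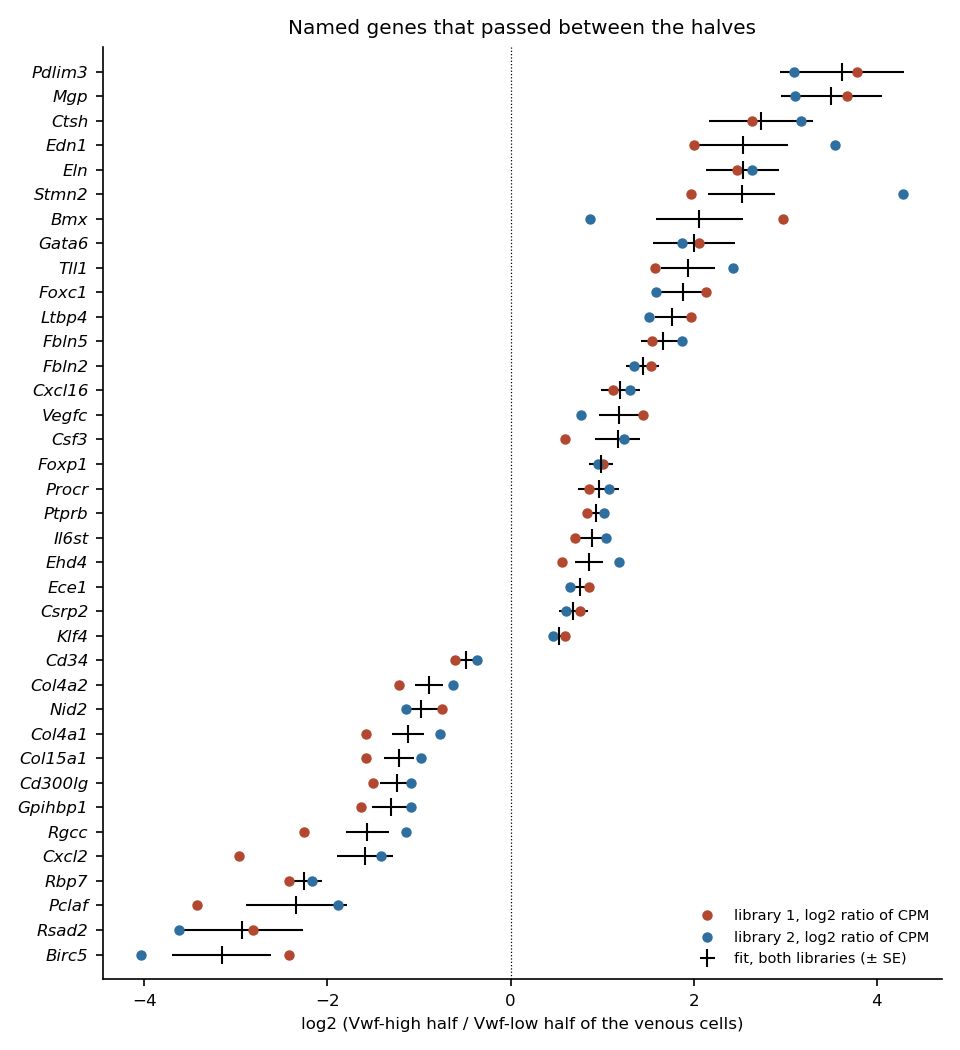
Log2 change between Vwf-high and Vwf-low venous cells (x axis) for 37 named genes that passed (rows), with the fitted value, its SE as a bar and each library's own ratio as small points. Rbp7 lies at -2.26 and Mgp at 3.50, and both libraries lie on the same side of 0 for each of these 2 genes.

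The venous cells were also grouped by Ackr1, and those values are given without a test and in unscaled CPM. Vwf had 1034 and 742 CPM in venous cells with an Ackr1 UMI (93 and 56 cells) against 375 and 206 CPM in those without one (53 and 114 cells). Rbp7 had 41.8 and 43.0 CPM in cells with Ackr1 against 358 and 320 CPM in those without. Lrg1 stood at 269.8 and 296 CPM with Ackr1 against 96.4 and 107 CPM without it. Icam1 was close in both, with 1122 and 2396 CPM with Ackr1 against 1035 and 2461 CPM without. As a group, cells without Ackr1 differed from other blood endothelium in 963 genes under the same test, against 1728 for all venous cells. That group held fewer cells, 53 and 114 against 146 and 170, and the part of this in the lower count was not tested.

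Htr2b, the serotonin 2B receptor, and Tmem108, a transmembrane protein studied mainly in neurons, were rare. Htr2b was detected in 13 of 146 venous cells in library 1 and 3 of 170 in library 2, against 5 of 872 and 0 of 1179 other blood endothelial cells. Its level was 21.3 and 3.40 CPM in venous cells against 1.27 and 0 CPM in other blood endothelium (log2 4.33, SE 0.62, adjusted p = 0.000272). No Htr2b UMI was found in the arterial, Sele-positive or capillary gates, but 4 of 291 and 4 of 588 lymphatic cells held one. Tmem108 was detected in 3 venous cells of library 1 and in none of library 2, and it did not pass (5.63 and 0 CPM against 1.5 and 0.171 CPM, adjusted p = 0.247). All 3 venous Tmem108 cells also held Htr2b. Among lymphatic cells Tmem108 was detected in 5 of 291 in library 1 and 0 of 588 in library 2.

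Cells with Htr2b lay at the Vwf-rich end. In library 1, 12 of the 13 were among the Vwf-high cells, and in library 2 all 3 were. With 13 and 3 cells no test was made, and the values are given in unscaled CPM. In Htr2b cells Vwf stood at 2387 and 1674 CPM, against 609.8 and 359.9 CPM in the other venous cells. Mgp stood at 2483 and 3305 CPM in Htr2b cells against 156 and 57.0 CPM. Eln stood at 5328 and 3138 CPM in Htr2b cells against 1106 and 398 CPM. All 3 genes were higher in the Htr2b cells of both libraries. Sele ran the other way in library 1, with 192 CPM in Htr2b cells against 775 CPM, and stood at 1255 CPM against 1389 CPM in library 2, where a single cell held 26 Sele UMIs and the other 2 cells held 3 and 1. Htr2b also occurred below the threshold of 3 UMIs, in 10 of 67 cells with 1 or 2 UMIs of Ackr1 and Selp in library 1 and in 0 of 79 in library 2. The 5 Tmem108 cells of that group were all in library 1. The pattern of both genes thus rests mainly on library 1.

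Antibody tags gave ICAM1 and CXCR4 protein counts that differed between venous cells and other blood endothelium in the direction of the transcripts. ICAM1 tags averaged 372 and 409 per venous cell against 110.2 and 138 per cell of the other blood endothelium, which is 3.38-fold in library 1 and 2.96-fold in library 2 (mean 3.17 ± 0.296 SD, n = 2). An exact permutation test of 2 libraries against 2 cannot go below a two-sided p of 0.333, so the tags are described by each library's values, without a p-value. Sele-positive cells had 265 and 275 ICAM1 tags, capillary cells 138 and 153, arterial cells 81.6 and 111, and lymphatic cells 36.4 and 54.0. Venous cells thus had the highest mean of these groups in both libraries, and Sele-positive cells the next.

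CXCR4 tags averaged 3.68 and 2.91 per venous cell against 30.1 and 28.4 per other cell, a ratio of 0.112 ± 0.0143 (SD, n = 2), and the medians were 2 and 2 against 8 and 9. Arterial cells had 43.8 and 42.5 CXCR4 tags. VEGFR2 tags averaged 3.12 and 3.78 per venous cell against 3.42 and 4.09, a ratio of 0.918 ± 0.00687 (SD, n = 2). VCAM1 tags averaged 3.23 and 2.35 per venous cell against 2.23 and 2.41, so the groups differed in library 1 only. Rat IgG2a isotype tags, which mark unspecific binding, averaged 1.33 and 2.32 per venous cell against 1.23 and 2.06. In library 2 the VCAM1 count thus lay at the isotype level, although Vcam1 transcript was higher in venous cells there. CD45 tags averaged 10.9 and 3.29 per venous cell against 6.73 and 4.21, with medians of 1 and 2 against 1 and 1, so a few cells carried most of them. Rat IgG2b isotype tags averaged 0.329 and 0.429 per venous cell against 0.231 and 0.388.

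ICAM1 accounted for 94.3% and 96.4% of all tags on venous cells, against 71.5% and 76.9% on other blood endothelium. Shares of tags are therefore bound together, and only counts per cell are compared here. Within venous cells, ICAM1 tags averaged 376 and 456 on Vwf-high cells against 368 and 363 on Vwf-low cells. They averaged 365 and 544 on cells with Ackr1 against 385 and 343 on cells without it. The order of the Ackr1 groups thus differed between the libraries.

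**Figure D5:**
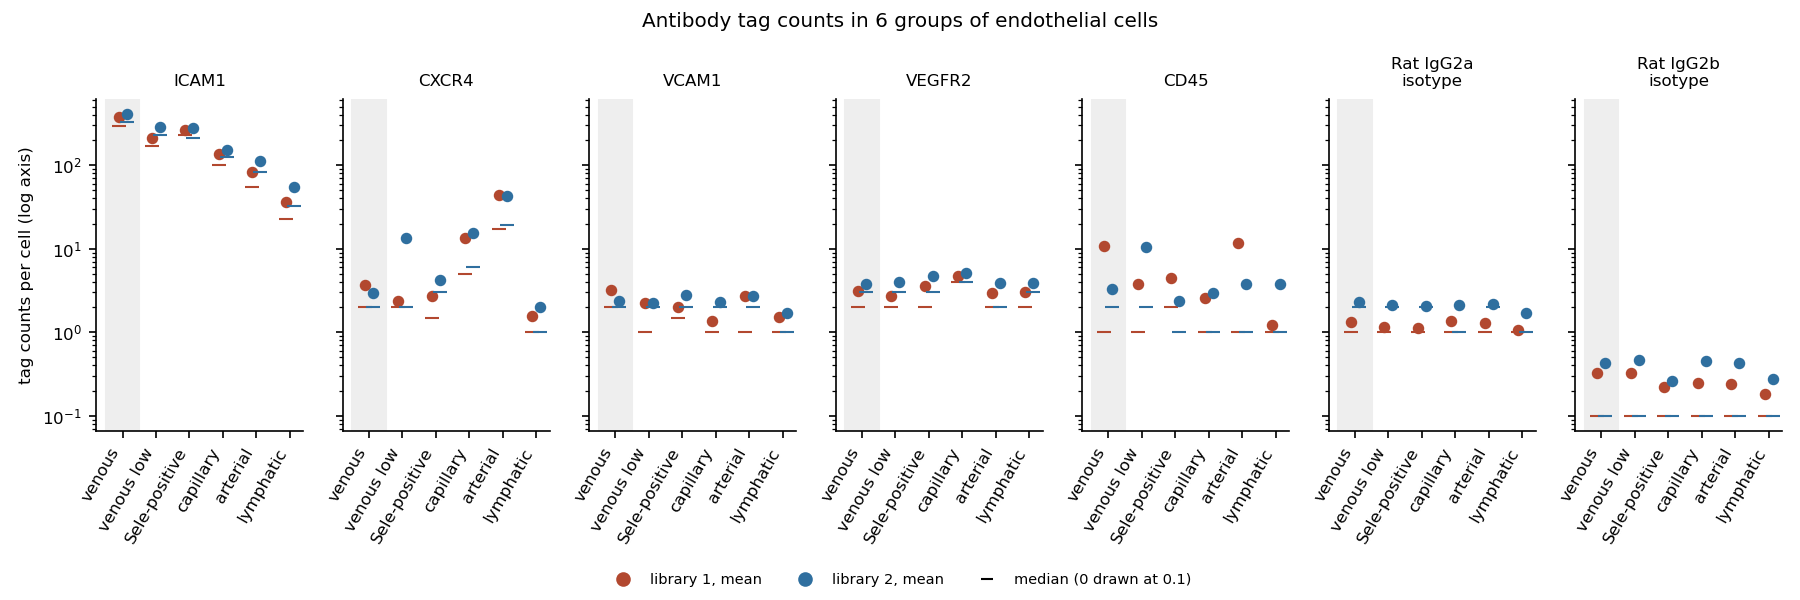
Antibody tag counts per cell (log axis, 0 drawn at 0.1) for 5 surface proteins and 2 isotype controls. Dots show library means and dashes show medians. The groups are venous cells, cells with Ackr1 or Selp UMIs below the venous threshold, Sele-positive, capillary and arterial cells, and lymphatic cells. In venous cells the means are 372 and 409 for ICAM1 and 3.68 and 2.91 for CXCR4. In other blood endothelium as a whole, which is not drawn, they are 110.2 and 138 for ICAM1 and 30.1 and 28.4 for CXCR4.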

How the data were processed

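Endothelial cells of neonatal mouse ears were measured as 2 mRNA libraries and 2 matched antibody tag libraries, and the kit was 10x 3' v3, per the labels' protocols. Deposited mRNA values are raw UMI counts for each gene in each barcode. Cell Ranger, Seurat 3.0.2 and mm10 are listed in the submitters' processing notes, without a stated role, and software 3.0.2 in the matrix headers. Deposited tag values are counts for each antibody in each barcode, and no source used here says whether they are UMIs or reads.

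The members, gene lists and tests were chosen with earlier results of these data known. Barcodes with fewer than 500 genes (26 and 45) or over 10% mitochondrial UMIs were left out. No doublet caller or free RNA correction was used, and leaving out the 10% of cells with the most UMIs was tried instead. Counts of features sharing a symbol were summed. UMIs were summed per library and group of cells and tested with edgeR 4.0.16 in R 4.3.3 (TMM, low-count filter, quasi-likelihood, Benjamini-Hochberg adjustment, threshold 0.05). The library entered as a block because the groups compared in a library come from the same animals. Few residual degrees of freedom remain, so p-values lean on the spread shared across genes. DESeq2 1.42.0 was an alternative. Figures and shares used Python 3.11.15 with numpy 2.4.6, pandas 2.3.3, scipy 1.17.1 and matplotlib 3.10.9. On simulated data for venous cells against other blood endothelium, with 200 of 10914 genes changed, 76% of genes changed 2-fold and 96% of those changed 4-fold were found, with 6.52% false calls. The changed genes were drawn only from genes above a low-count limit. The simulated counts followed the spread shared across genes, so these shares do not cover genes of low level or of unusual spread.

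The rule for named genes took the genes encoding tagged proteins, the markers Vwf, Ptgs1, Nrp2, Tmem108 and Htr2b, the 14 largest rises and 10 largest falls (6 of each in other comparisons), and from every list at most 4 members, ranked by adjusted p. Rises and falls had to pass, to reach a mean log2 CPM of 5 and to share 1 direction across libraries. Genes that chose the cells, predicted models, mitochondrial, ribosomal, Xist and Y-linked genes and markers of non-endothelial cells were left out of that ranking. A gene that the rule named is not reported here. Other genes named with a value or within a count of a list were picked after their values were seen. Coordinates are from GENCODE vM21 on GRCm38, where all 176 genes looked up were found, and 125 of them had an upstream sequence in RefSeq.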

Additional observations from a re-analysis of the deposited data

How the results depend on the processing

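Venous cells against other blood endothelium called 1728 genes, and 936 without the replicate block, 1143 with DESeq2, 784 with at least 1000 genes and at most 5% mitochondrial UMIs per cell, and 963 with venous cells lacking Ackr1, a setting chosen after seeing the data. The other counts without the block were 143 against 458 for cells with 1 or 2 UMIs, 728 against 1133 for Sele-positive cells, 1168 against 1918 for arterial cells and 4 against 176 for the Vwf groups. The stricter cell filter gave 838 against arterial and 889 against capillary cells. Cells with 1 or 2 UMIs gave 787 calls with no low-count filter, 261 with a gate of 2 UMIs and 294 without the deepest 10% of cells, and the Vwf groups gave 490 with no low-count filter. Gates on thinned cells gave 1047 against capillary cells (main value 1923). Settings added after seeing the data gave 271 (1 or 2 UMIs), 336 (Sele-positive) and 1276 (capillary) with non-dividing references, and 545 (Sele-positive) and 1161 (capillary) with venous cells lacking Ackr1. Against non-dividing Sele-positive cells Ccna2 (5.27), Hist1h2ap (0.51) and Pimreg (1.17) turned to a higher level, none of them past the threshold, as did Ube2c against non-dividing arterial cells (0.031), and Ltbp4 turned to -0.10 against Sele-positive cells for venous cells lacking Ackr1, and S100a4 to 0.34 (adjusted p = 0.958) between the Vwf groups without cells holding lymphatic or other cell type markers (log2). The cause was not tested, except that fewer cells or samples enter several of these fits.

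The share of venous cells (12.4%) was 14.3% with a gate of 2 UMIs, 9.64% with 5, 10.6% under the stricter cell filter and 6.91% on thinned cells, and 11.5% to 13.2% with 1 library left out. As shares of all tags, the venous to other ratios were 1.29 for ICAM1, 0.488 for VCAM1, 0.0456 for CXCR4 and 0.374 for VEGFR2, and VEGFR2 was 0.90 in cells with at least 20 tag counts. With 1 library left out the ratios per cell ranged from 2.96 to 3.38 for ICAM1, 0.972 to 1.44 for VCAM1, 0.102 to 0.123 for CXCR4 and 0.913 to 0.923 for VEGFR2. No value could be had for the stricter filter on cells with 1 or 2 UMIs and on Sele-positive cells, for thinned gates on Sele-positive cells, for a Vwf division at 3 or more against 0 UMIs, or for tests of cells with and without Htr2b or Tmem108, since a group fell under 20 cells. With 2 libraries and 316 venous cells, genes of low level and changes under 2-fold are often out of reach.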
